A study of Mus musculus with 19 samples.

Results

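Mouse oral tumours treated with anti-PD1 plus regorafenib (5 libraries) were set against mouse oral tumours treated with an anti-CD40 agonist (3 libraries). These 8 libraries were chosen by the treatment in their labels and form 8 of 19 bulk RNA-seq libraries of the series. All came from C57BL/6J mice that were 6 weeks old when they began to drink water with 100 µg/ml of 4NQO for 10 weeks, followed by plain water. The 4NQO compound (4-nitroquinoline 1-oxide) is a carcinogen that forms DNA adducts and gives rise to squamous tumours of the tongue and oral lining. The combination group received both anti-PD1 and regorafenib, and the anti-CD40 group received the agonist without either of them. A vehicle group of 4 libraries with the same carcinogen is given beside them as a level, and the remaining libraries had regorafenib alone or anti-PD1 alone. The treatment protocol gives 5 mg/kg/day for regorafenib and does not mention the CD40 agonist, antibody doses, schedules or the time of collection. The labels number the samples and do not say that each came from a separate animal. A p-value here therefore reflects spread among samples, some of which could share an animal.

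Both treatments act on immune signalling, by different routes. PD-1 is an inhibitory receptor on activated T cells, and antibodies that block it release T cells from inhibition by its ligands. Regorafenib is an oral kinase inhibitor of VEGF, PDGF and FGF receptors, CSF1R, KIT, RET, TIE2 and RAF kinases, with effects on vessels and macrophages. CD40 is a TNF-receptor family member on dendritic cells, macrophages and B cells that signals through TRAF adaptors and NF-kappa-B, and an agonist antibody stands in for the ligand carried by helper T cells. The contrast therefore sets a T-cell checkpoint plus kinase blockade against direct activation of antigen-presenting cells in the same carcinogen model.

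The 8 libraries held 16776177 to 23435619 counts assigned to genes. Levels below are CPM, each gene's share of a library's counts, scaled by TMM, and differences are log2 differences from edgeR, combination minus anti-CD40, with a standard error (SE) and a 95% interval. Squamous keratinocyte genes were abundant in both groups: 13 basal keratinocyte genes summed to 6309 to 8755 CPM in the combination and to 6244 to 8585 CPM with anti-CD40. The tumours also carried neighbouring tissue. In all, 20 skeletal muscle genes summed to 45020 to 60940 CPM in the combination and 43480 to 67000 CPM with anti-CD40. The 12 salivary gland genes that were tested summed to 1120 to 18930 CPM in the combination and to 53.6 to 2692 CPM with anti-CD40, with a median difference of 2.45 log2 units, and none of them differed at an unadjusted p under 0.05. Stomach genes were also listed, and the source of their RNA was not tested. The 11 stomach genes tested summed to 0.71 to 600.5 CPM in the combination and 1.497 to 75.6 CPM with anti-CD40. Their median difference was -1.60, and 4 were lower and 0 higher at an unadjusted p under 0.05, against 2.74% and 2.26% of all genes. The median library sum was only 1.616 CPM in the combination and 17.65 CPM with anti-CD40, so single genes were near the floor. A gene can pass the filter through libraries outside these groups, and Gkn1 did not pass it with the 2 groups alone. The count of 4 is therefore not a result about stomach genes. Gkn1, the gastrokine of stomach surface mucous cells, stood at 0, 0.0591, 0, 0.0481 and 0.0498 CPM in the combination and at 5.06, 0.109 and 0 CPM with anti-CD40, so the first anti-CD40 library stood apart for it. In bulk tissue, fewer cells of a type and less RNA per cell cannot be told apart.

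No gene differed between the combination and the anti-CD40 agonist after adjustment. Of 16909 genes tested with edgeR's quasi-likelihood test, 0 (0%) had a Benjamini-Hochberg adjusted p under 0.05, and the smallest adjusted p was 0.927. At an unadjusted p under 0.05 there were 845 genes (5% of those tested), the 845 expected if no gene differed. Of these, 382 were higher in the combination (2.26%) and 463 were lower (2.74%). All 5 combination libraries lay above all 3 anti-CD40 libraries for 302 genes (1.79%) and below them for 299 genes (1.77%). DESeq2 and limma also called 0 genes, with 791 and 1818 at an unadjusted p under 0.05. With limma, 5.06% of genes were higher and 5.7% lower at that level, more than with edgeR. Adjusted p-values were also smaller: that of Rpl38 was 0.12 with DESeq2 and 0.205 with limma.

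The failure to find a difference is bounded by the intervals. Among the 14719 genes with a mean of at least 1 CPM in either group, the 95% interval of the difference stayed within a 2-fold change in either direction for 13829 (94%) and within 1.5-fold for 11681 (79.4%). The median SE in this set was 0.112 and the median absolute difference was 0.0833 log2 units. Over all 16908 genes with an interval, 14693 (86.9%) stayed within 2-fold. Intervals were wide for genes of rare immune cells, of neighbouring gland tissue and of the stomach list. Every gene value given below for this contrast is therefore a level with its interval and not a called change.

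**Figure D1:**
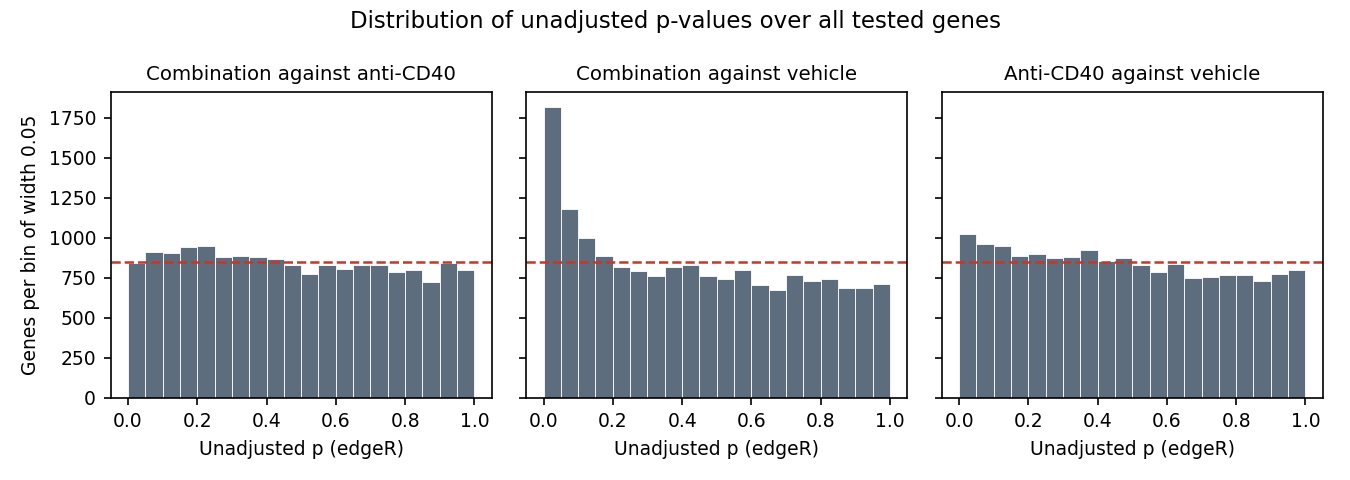
Number of tested genes (y axis) in each bin of width 0.05 of the unadjusted edgeR p-value (x axis) for combination against anti-CD40, combination against vehicle and anti-CD40 against vehicle; the dashed line is an even spread over the bins. The first bin holds 845 genes for the combination against anti-CD40, at the line, 1819 genes for the combination against vehicle and 1025 genes for anti-CD40 against vehicle.

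Set against vehicle, 4 genes fell in the combination and 0 genes were called with anti-CD40. The smallest adjusted p of the anti-CD40 comparison was 0.0566, with 1025 genes (6.06%) at an unadjusted p under 0.05, and the combination had 1819 (10.8%), of which 4 (0.0237%) passed adjustment. DESeq2 called 122 genes for the combination and 5 for anti-CD40. These comparisons share the vehicle libraries. The 4 genes were Dusp1, Amotl2, Mpp2 and the long non-coding RNA A930016O22Rik. Dusp1 is a phosphatase that switches off MAP kinases and is itself induced by them. It stood at 52.6, 55.6, 48.8, 50.3 and 49.7 CPM in the combination, 47.9, 55.9 and 59.7 CPM with anti-CD40 and 82.3, 99.7, 81.7 and 86.6 CPM with vehicle. Both treated groups lay below every vehicle library and overlapped each other. The combination minus anti-CD40 difference of Dusp1 was -0.09 ± 0.12 (SE), with an interval of -0.34 to 0.17, against -0.77 ± 0.11 for combination minus vehicle and -0.68 ± 0.13 for anti-CD40 minus vehicle (adjusted p = 0.0138 and 0.185, edgeR).

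Amotl2, an angiomotin scaffold that holds the Hippo effector YAP in the cytoplasm and is a YAP target, was also below vehicle in both treated groups. Its level was 54.7, 49.9, 54.3, 52.9 and 50.2 CPM in the combination, 50.8, 48.2 and 52.5 CPM with anti-CD40 and 70.9, 66.6, 68.1 and 84.2 CPM with vehicle. The combination and anti-CD40 libraries overlapped, with a difference of 0.05 ± 0.08 and an interval of -0.11 to 0.21, the narrowest of the 4 genes. A930016O22Rik was at 0.953, 0.946, 1.34, 1.44 and 1.05 CPM in the combination, 1.2, 1.37 and 0.748 CPM with anti-CD40 and 2.86, 2.52, 3.2 and 2.13 CPM with vehicle, with an interval of -0.44 to 0.57 between the treated groups. Mpp2, a membrane scaffold of the MAGUK family, was at 11.4, 9.22, 10.8, 14.8 and 9.32 CPM in the combination, 12, 13.5 and 17.9 CPM with anti-CD40 and 22.3, 17.2, 21.7 and 20.3 CPM with vehicle. The third anti-CD40 library reached the vehicle range, and no combination library did. The difference of Mpp2 between the treated groups was -0.38 ± 0.14 (unadjusted p = 0.015, edgeR). The count against vehicle rested on single libraries: in place of 4 it was 0 without vehicle replicate 1, 2 without vehicle replicate 3, 0 without combination replicate 2 and 7 without combination replicate 5, while that for anti-CD40 was 1 without vehicle replicate 2.

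Dusp1 belongs to a list of 19 MAP kinase feedback genes, the phosphatases, Sprouty and Spred inhibitors and similar genes that MAP kinase activity induces. Between the treated groups 0 of them were higher and 0 lower at an unadjusted p under 0.05, with a median of -0.02. The list's summed level was 532 to 609 CPM in the combination, 525 to 629 CPM with anti-CD40 and 636 to 655 CPM with vehicle, so every treated library lay below every vehicle library while the treated groups overlapped. This rested on Dusp1: without it the other 18 genes summed to 482 to 558 CPM in the combination, 477 to 569.6 CPM with anti-CD40 and 552 to 569 CPM with vehicle, which overlap. The list's median difference from vehicle was -0.047 in the combination and -0.00406 with anti-CD40, and in each comparison 5 of 19 were lower and 1 higher at an unadjusted p under 0.05 (background 5.96% and 4.8% for the combination, 3.08% and 2.98% for anti-CD40). Of 27 immediate early transcription factor genes, 1 was higher and 0 lower in the combination than with anti-CD40 (background 2.26% and 2.74%). Their sum was 1445 to 1743 CPM in the combination, 1409 to 1866 CPM with anti-CD40 and 1706 to 1732 CPM with vehicle, which overlap. Their median difference from vehicle was -0.151 in the combination and -0.189 with anti-CD40. In the combination, 8 were lower than vehicle and 1 higher at an unadjusted p under 0.05 (background 5.96% and 4.8%). With anti-CD40, 5 were lower and 1 higher (background 3.08% and 2.98%).

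**Figure D2:**
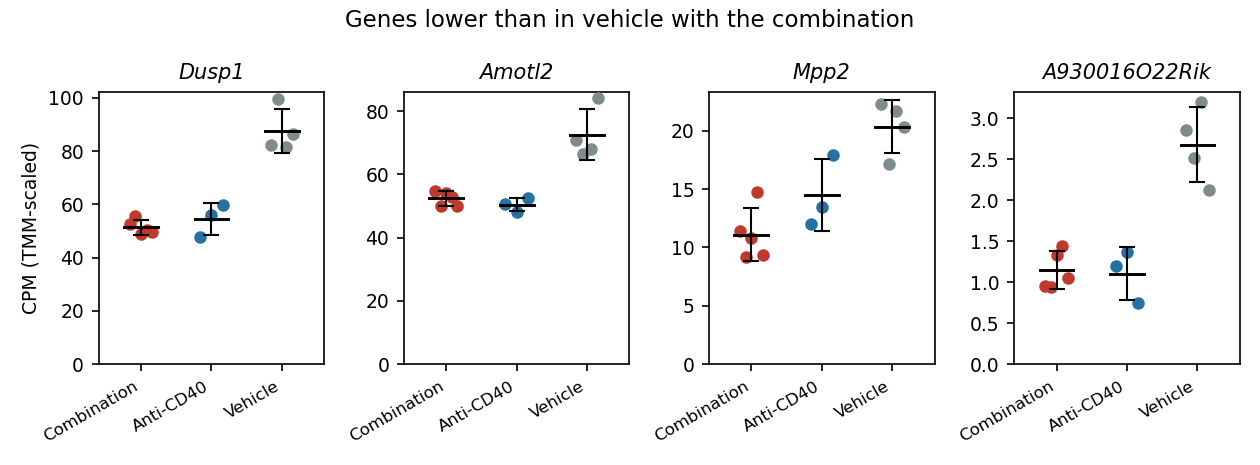
Level of Dusp1, Amotl2, Mpp2 and A930016O22Rik in each library (y axis, TMM-scaled CPM) for the combination, anti-CD40 and vehicle groups; points are libraries, bars the mean and SD (n = 5, 3 and 4). Every combination and anti-CD40 library of Dusp1, Amotl2 and A930016O22Rik lies below every vehicle library, and the treated groups overlap.

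None of the genes that encode the drug targets was called. Cd40, the receptor that the agonist binds, was near the limit of measurement, at 1.17, 0.355, 1.06, 1.01 and 0.697 CPM in the combination and 0.574, 0.765 and 0.582 CPM with anti-CD40. Its groups overlapped, and the interval of -0.26 to 1.14 log2 units did not exclude a 2-fold difference. Of 23 CD40 and NF-kappa-B genes, 0 were higher and 0 lower at an unadjusted p under 0.05, with a median difference of 0.02. Rela, the main activating NF-kappa-B subunit, was at 47.8, 49.8, 48.5, 43.5 and 49.8 CPM in the combination and 47.1, 44.1 and 51.8 CPM with anti-CD40, an interval of -0.12 to 0.14. Nfkb2, the subunit processed in the non-canonical pathway that CD40 engages, had 21.7, 18.7, 17.9, 16.8 and 22.4 CPM in the combination and 19.7, 16.1 and 16.3 CPM with anti-CD40, an interval of -0.11 to 0.44. Traf1, an NF-kappa-B-induced adaptor, averaged 2.31 ± 0.326 CPM in the combination, 2.21 ± 0.854 CPM with anti-CD40 and 1.61 ± 0.0879 CPM with vehicle (SD, n = 5, 3 and 4).

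Pdcd1, which encodes PD-1, was at 1.17, 0.946, 0.39, 1.11 and 1.2 CPM in the combination and at 0.574, 0.655 and 0.457 CPM with anti-CD40. The third combination library lay below all 3 anti-CD40 libraries and the other four lay above them, and the difference of 0.79 ± 0.38 had an interval of 0.00 to 1.59 (unadjusted p = 0.0503, edgeR). Cd274, which encodes the ligand PD-L1, had 10.7, 6.03, 7.02, 8.95 and 9.62 CPM in the combination and 6.79, 4.48 and 10.2 CPM with anti-CD40, with overlapping groups and an interval of -0.34 to 0.83.

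Of 18 kinases that regorafenib inhibits, 2 (Abl1 and Ret) were higher and 0 lower in the combination at an unadjusted p under 0.05 (background 2.26% and 2.74%). Kdr, the main VEGF receptor of blood vessels, was at 56.6, 41.3, 55.6, 34 and 37.2 CPM in the combination and 45.6, 51.5 and 37.1 CPM with anti-CD40, a difference of 0.01 ± 0.17 with an interval of -0.34 to 0.36. Pdgfrb, the PDGF receptor of pericytes and fibroblasts, had an interval of -0.11 to 0.49, and Csf1r, the receptor that maintains macrophages, had an interval of -0.01 to 0.44 around 0.21. Abl1, a cytoplasmic tyrosine kinase, was at 56.4, 52.4, 54.5, 52.9 and 56.9 CPM in the combination and 47.6, 50.3 and 51.8 CPM with anti-CD40, groups that did not overlap although the difference was only 0.13 ± 0.05. Among 19 blood endothelial genes 0 were higher and 0 lower, with a median difference of -0.00082, and summed levels were 471 to 609 CPM in the combination and 439 to 652 CPM with anti-CD40.

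T-cell genes gave the clearest group of positive differences, at levels close to 1 CPM. Of 25 listed T-cell and NK genes, 18 passed the filter on low counts, and 7 of these 18 were higher in the combination at an unadjusted p under 0.05 and 0 were lower, against 2.26% and 2.74% of all genes. A gene can pass the filter through the group where it is high, so these counts do not speak for all 25. Without the filter, 8 of the 25 were higher and 0 lower, against 1.71% and 1.7% of all genes. In that fit 19 of 25 differences were positive, with a median of 0.458. Among the 7 were Klrk1, Cd4, Cd8b1, Cd2, Cd8a and Nkg7. The list's median difference was 0.50, against -0.0041 over all genes, and 15 of the 18 differences were positive. Klrk1, the NKG2D receptor of NK cells and cytotoxic T cells, was at 1.69, 1.24, 1.67, 1.93 and 1.44 CPM in the combination, 0.522, 0.765 and 0.831 CPM with anti-CD40 and 1.03, 1.36, 0.746 and 0.726 CPM with vehicle. Every combination library lay above every anti-CD40 library, with a difference of 1.16 ± 0.33 and an interval of 0.47 to 1.85 (unadjusted p = 0.00223, edgeR).

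Cd8b1, a chain of the CD8 co-receptor that marks cytotoxic T cells, was at 0.52, 1.06, 0.836, 0.866 and 0.399 CPM in the combination, 0.313, 0.273 and 0.333 CPM with anti-CD40 and 0.238, 0.202, 0.107 and 0.104 CPM with vehicle. Its partner Cd8a was at 0.736, 1.54, 1.28, 1.78 and 0.349 CPM in the combination, 0.522, 0.546 and 0.54 CPM with anti-CD40 and 0.318, 0.252, 0.266 and 0.363 CPM with vehicle. The fifth combination library was the lowest of its group for both genes, and for Cd8a it lay below all 3 anti-CD40 libraries. Cd2, an adhesion receptor of T and NK cells, was at 1.65, 1.66, 1.95, 1.93 and 1.49 CPM in the combination and 0.783, 1.26 and 1.21 CPM with anti-CD40, without overlap (difference 0.67 ± 0.23). Cd4, the co-receptor of helper T cells, was at 2.81, 0.946, 2.34, 2.79 and 1.79 CPM in the combination and 0.94, 0.928 and 1.25 CPM with anti-CD40. Its second combination library lay among the anti-CD40 libraries.

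The invariant chains of the T-cell receptor did not separate as widely. Cd3e was at 1.17, 1.24, 1.45, 1.06 and 1.25 CPM in the combination, 0.888, 1.09 and 1.37 CPM with anti-CD40 and 0.437, 0.605, 0.692 and 0.259 CPM with vehicle. The treated groups overlapped (interval -0.43 to 0.69), and both lay above every vehicle library, with differences of 1.30 ± 0.27 for combination minus vehicle and 1.17 ± 0.30 for anti-CD40 minus vehicle (adjusted p = 0.112 and 0.621, edgeR). Cd3g had an interval of -0.12 to 0.83, and Lck, the kinase that starts T-cell receptor signalling, an interval of -0.26 to 0.97. Against vehicle, 11 of the 18 genes were higher in the combination at an unadjusted p under 0.05 (background 4.8%) and 1 with anti-CD40 (background 2.98%). None was lower in either comparison (background 5.96% for the combination and 3.08% for anti-CD40), and the comparisons share the vehicle libraries.

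Effector genes were mostly too rare to test. Prf1, which encodes the pore-forming perforin, had 28 counts in all in the combination (8, 4, 7, 7 and 2) and 3 with anti-CD40 (1 in each library). Gzmb, the cytotoxic protease granzyme B, had 17 counts in the combination (3, 2, 4, 6 and 2) and 15 with anti-CD40 (8, 2 and 5). Ifng, the interferon of activated T cells, had 7 in the combination (1, 0, 2, 3 and 1) and 3 with anti-CD40 (2, 0 and 1). These totals are over 5 and 3 libraries and are not scaled. None of these genes passed the filter. The T-cell count was 6 to 8 in place of 7 when any single library of either group was left out, and 8 with the salivary gland score as a covariate.

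**Figure D3:**
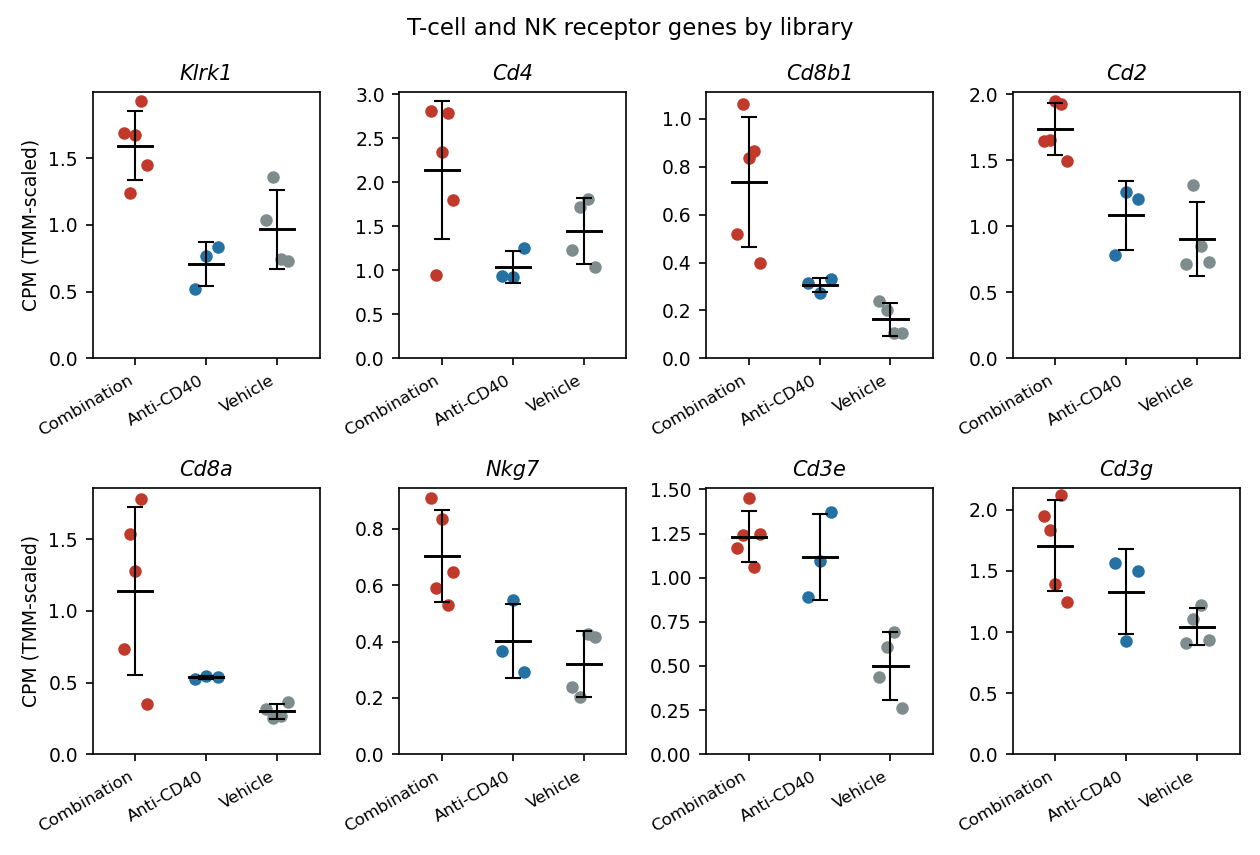
Level of 8 T-cell and NK genes in each library (y axis, TMM-scaled CPM) for the combination, anti-CD40 and vehicle groups; points are libraries, bars the mean and SD (n = 5, 3 and 4). Klrk1, Cd8b1 and Cd2 are higher in all 5 combination libraries than in all 3 anti-CD40 libraries, whereas Cd3e overlaps between them and lies above vehicle in both.

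The median difference of 15 checkpoint and regulatory T-cell genes was 0.24. At an unadjusted p under 0.05, 1 was higher and 0 were lower (background 2.26% and 2.74%). This was Il2ra, the alpha chain of the interleukin-2 receptor carried by regulatory and activated T cells, at 2.17, 1.36, 1.95, 2.02 and 2.09 CPM in the combination and 1.15, 1.04 and 1.62 CPM with anti-CD40. The second combination library lay apart below its group and inside the anti-CD40 range. Foxp3, the regulatory T-cell transcription factor, averaged 0.93 ± 0.184 CPM in the combination and 0.778 ± 0.0635 CPM with anti-CD40, an interval of -0.37 to 0.87. Ctla4, an inhibitory receptor, had a difference of -0.01 ± 0.24. Only 5 of 19 B and plasma cell genes passed the filter, and 0 of the 5 were higher or lower.

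Ptprc (CD45), carried by nearly all white blood cells, had 14.9, 13.1, 12.5, 15.9 and 12.8 CPM in the combination, 9.97, 7.37 and 9.6 CPM with anti-CD40 and 8.74, 11.3, 9.59 and 6.17 CPM with vehicle. The combination lay above the other groups in every library, and the difference from anti-CD40 was 0.62 ± 0.16, with an interval of 0.29 to 0.95 (unadjusted p = 0.000883, edgeR). The anti-CD40 minus vehicle difference of Ptprc was 0.01 ± 0.16.

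Macrophage genes gave smaller differences, of mixed sign in the M2-type list and mostly positive in the pan-macrophage list. Of 14 genes of the M2 (alternatively activated) list, 3 were higher in the combination at an unadjusted p under 0.05 and 0 lower (background 2.26% and 2.74%), and 8 of 14 differences were positive, with a median of 0.11. Lyve1, a hyaluronan receptor of tissue-resident macrophages and lymphatic vessels, was at 26.1, 18, 19.4, 17.6 and 18 CPM in the combination, 12.9, 16.2 and 11.5 CPM with anti-CD40 and 14.9, 14.8, 18.5 and 22.2 CPM with vehicle. The combination lay above anti-CD40 without overlap, its first library furthest, and vehicle overlapped both. Arg1, the arginine-degrading enzyme of suppressive macrophages and of some keratinocytes, was at 285, 225, 223, 262 and 248 CPM in the combination and 234, 168 and 179 CPM with anti-CD40, with overlap. Msr1, a scavenger receptor, averaged 1.78 ± 0.422 CPM in the combination and 1.17 ± 0.202 CPM with anti-CD40. Cd163, the haemoglobin scavenger receptor, overlapped fully, with an interval of -0.27 to 0.47. The count of 3 was 1 without anti-CD40 replicate 2 and 1 without anti-CD40 replicate 3.

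Of 15 pan-macrophage genes, 13 had positive differences, with a median of 0.21, and Adgre1 (F4/80) alone was higher at an unadjusted p under 0.05 (0.40 ± 0.19). Tnf, the inflammatory cytokine, was the member of 11 M1-type genes that did so, at 0.839 ± 0.214 CPM in the combination and 0.49 ± 0.0324 CPM with anti-CD40. Ccr2, the receptor that brings monocytes from blood, was at 10.9, 10.3, 9.92, 9.72 and 8.97 CPM in the combination and 9.14, 7.15 and 7.4 CPM with anti-CD40. Its first anti-CD40 library lay inside the combination's range, and the difference was 0.33 ± 0.13. It was 1 of 22 chemokine and receptor genes higher at an unadjusted p under 0.05, with 0 lower. The background for each of these macrophage and chemokine counts was 2.26% higher and 2.74% lower. Among 14 dendritic cell genes, the cells on which CD40 acts most directly, 0 were higher and 0 lower, with a median of 0.01. Of 11 neutrophil genes 0 were higher and 0 lower, and their sum varied from 267 to 2553 CPM in the combination and from 48.99 to 1690 CPM with anti-CD40.

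Antigen presentation genes gave 3 of 26 higher and 0 lower at an unadjusted p under 0.05 (background 2.26% and 2.74%), with a median of 0.11. B2m, the invariant light chain of MHC class I, was at 421, 335, 314, 409 and 386 CPM in the combination and 308, 236 and 311 CPM with anti-CD40. All combination libraries lay above all anti-CD40 libraries, and the second anti-CD40 library was the lowest (difference 0.39 ± 0.16). The class I heavy chain H2-K1 had a difference of 0.28 ± 0.13 and Irf8, a transcription factor of dendritic and myeloid cells, of 0.48 ± 0.21. MHC class II genes were closer, with intervals of -0.35 to 0.57 for H2-Aa and -0.24 to 0.56 for Cd74, the class II chaperone. The count of 3 was 0 without anti-CD40 replicate 2, where the median turned to -0.0458 and 8 of 26 differences were positive in place of 21. It was 0 with the replicate block, 5 without anti-CD40 replicate 3, and 1 without anti-CD40 replicate 1 or without combination replicate 1, 4 or 5. Of 25 type I interferon genes, 0 were higher or lower, with a median of -0.03.

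Circadian clock genes gave the opposite balance, 7 of 18 lower and 1 higher in the combination at an unadjusted p under 0.05, against 2.74% and 2.26% of all genes. The clock is a transcriptional loop in which CLOCK and BMAL1 (Arntl) bind E-boxes and drive their own repressors. An output arm of D-box factors (Dbp, Tef, Hlf and the repressor Nfil3) and the REV-ERB receptors (Nr1d1, Nr1d2) cycle in phase with the time of day. Some clock genes carry the canonical E-box CACGTG just before their start. The promoters of 3 of the lower genes that hold it are shown as the 250 bases upstream of the RefSeq gene start (GRCm38.p6, strand of the gene), with the E-box in capitals.
Ciart, chr3:95882229-95882478, minus strand: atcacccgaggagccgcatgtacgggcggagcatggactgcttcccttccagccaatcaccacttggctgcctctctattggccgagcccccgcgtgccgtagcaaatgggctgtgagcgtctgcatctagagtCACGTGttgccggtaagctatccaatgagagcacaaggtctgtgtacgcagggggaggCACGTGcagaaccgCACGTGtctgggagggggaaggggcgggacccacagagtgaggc
Bhlhe41, chr6:145865421-145865670, minus strand: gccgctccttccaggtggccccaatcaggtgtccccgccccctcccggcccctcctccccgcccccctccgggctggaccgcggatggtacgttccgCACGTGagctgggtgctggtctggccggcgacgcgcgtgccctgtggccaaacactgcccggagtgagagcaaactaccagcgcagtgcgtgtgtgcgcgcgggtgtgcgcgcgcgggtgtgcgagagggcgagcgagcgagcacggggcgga
Tef, chr15:81802423-81802672, plus strand: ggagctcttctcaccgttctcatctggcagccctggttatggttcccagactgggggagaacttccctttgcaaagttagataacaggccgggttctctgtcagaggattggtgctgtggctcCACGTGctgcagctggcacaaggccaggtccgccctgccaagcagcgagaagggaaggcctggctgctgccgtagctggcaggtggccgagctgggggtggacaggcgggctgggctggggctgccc

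The letters CACGTG, which read the same on both strands, occurred in 6 of 20 promoters (30%) of the 15 clock genes with an entry in the RefSeq table and in 1978 of 32851 promoters of that length (6.02%). The 6 promoters belong to 5 genes. Ciart, a repressor of CLOCK and BMAL1, held 3 matches, and Bhlhe41 (DEC2), another repressor, and Tef held 1 match each. Of the 8 clock genes at an unadjusted p under 0.05, all with an entry, 3 held a match. A match describes these letters and is not a measured binding site.

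Nr1d2, encoding REV-ERB-beta, was the clock gene with the smallest unadjusted p. Gene ENSMUSG00000021775.11 lies on chromosome 14 from 18204054 to 18239127 on the - strand (GRCm38). It was at 50.3, 40.7, 52.2, 45.8 and 44.1 CPM in the combination, 54.6, 70.1 and 72.9 CPM with anti-CD40 and 53.5, 45.5, 56.7 and 43.6 CPM with vehicle. All combination libraries lay below all anti-CD40 libraries and within the vehicle range or just under it (difference -0.50 ± 0.11, interval -0.73 to -0.26, unadjusted p = 0.000276, edgeR). Dbp, a D-box activator with a large daily swing, was at 3.55, 3.07, 2.79, 3.18 and 2.69 CPM in the combination and 2.72, 4.86 and 12.5 CPM with anti-CD40. The third anti-CD40 library stood far above the rest, and the first lay inside the combination range. Per3, a period repressor, was at 11.1, 10.2, 11.3, 13.4 and 10.5 CPM in the combination and 12.5, 14.9 and 18.5 CPM with anti-CD40, and Nr1d1, encoding REV-ERB-alpha, was at 56.4, 23.6, 57.3, 41.4 and 48.9 CPM in the combination and 51, 76.7 and 88 CPM with anti-CD40.

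Nfil3, which represses D-box genes and cycles against Dbp, was the member that was higher, at 22.3, 28.9, 21.8, 21.7 and 21.8 CPM in the combination and 19.998, 16.9 and 8.9 CPM with anti-CD40. The lowest Nfil3 level, in the third anti-CD40 library, was paired with the highest Dbp, Ciart, Per3, Nr1d1 and Nr1d2 levels of the 8 libraries. Ciart averaged 1.26 ± 0.145 CPM in the combination and 1.98 ± 0.889 CPM with anti-CD40. Arntl and Clock, the activators, had intervals of -0.03 to 0.50 and -0.05 to 0.21. Without anti-CD40 replicate 3, the counts were 1 lower and 0 higher (background 4.54% and 2.72%), and the list's median of -0.038 turned to 0.024. The labels give no time of collection, and its part in these differences was not tested.

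**Figure D4:**
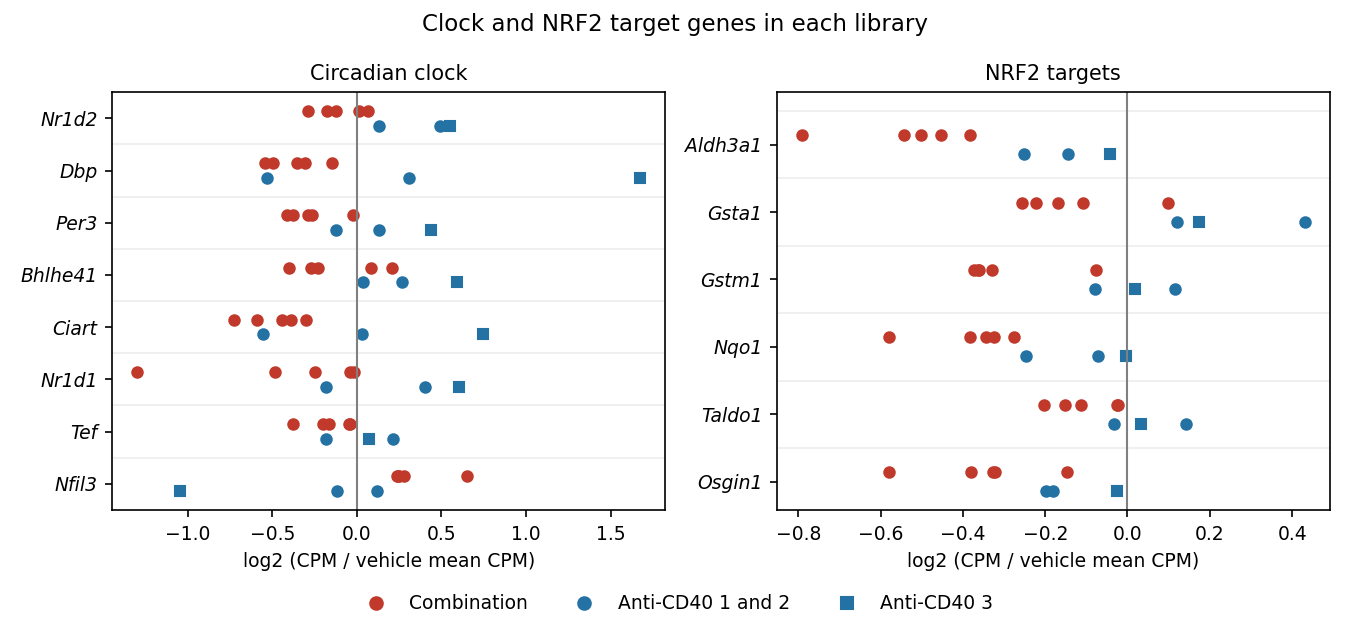
log2 ratio of each library's CPM to the vehicle mean (x axis) for 8 clock genes and 6 NRF2 target genes (rows), combination libraries in red above anti-CD40 libraries in blue; the square is anti-CD40 replicate 3 and the grey line the vehicle mean. The square is the extreme library of Dbp, Ciart, Per3 and Nfil3, whereas all 5 combination libraries of Aldh3a1 and Nqo1 lie below all 3 anti-CD40 libraries.

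NRF2 target genes leaned lower in the combination. NRF2 is the transcription factor that answers oxidative and electrophilic stress, and it controls glutathione, quinone and pentose phosphate enzymes. Of 18 targets, 6 were lower and 0 higher at an unadjusted p under 0.05 (background 2.74% and 2.26%), 16 of 18 differences were negative, and the median was -0.15. The summed level was 5103 to 5837 CPM in the combination, 6058 to 6811 CPM with anti-CD40 and 6253 to 7502 CPM with vehicle. All 5 combination libraries lay below all others of those groups in this sum. Singly, 4 of the 18 genes lay below all anti-CD40 libraries (1.77% of all genes). Aldh3a1 made up a large part of the sum, and how far the separation rested on it was not tested.

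Aldh3a1, an aldehyde dehydrogenase abundant in squamous epithelium and the largest single part of that sum, was at 2052, 1928, 1986, 2154 and 1625 CPM in the combination, 2360.5, 2545 and 2728 CPM with anti-CD40 and 2671, 2347, 3428 and 2796 CPM with vehicle. The combination lay below both other groups without overlap, with a difference from anti-CD40 of -0.38 ± 0.11 (interval -0.62 to -0.15, unadjusted p = 0.00282, edgeR). Nqo1, a quinone reductase widely used as an NRF2 readout, was at 181, 195, 158, 188 and 186 CPM in the combination and 224, 199 and 235 CPM with anti-CD40, again without overlap. Gsta1, a glutathione S-transferase, was at 34.8, 40.1, 32.1, 33.4 and 31.4 CPM in the combination and 50.5, 40.8 and 42.3 CPM with anti-CD40. Gstm1, Taldo1 and Osgin1 were the other three, with differences of -0.32, -0.15 and -0.21. Slc7a11, the cystine transporter, did not separate, with an interval of -0.67 to 0.71, and Hmox1, haem oxygenase, had -0.03 ± 0.10. Gstp1, a further glutathione S-transferase outside the list, was at 166, 169, 131, 155 and 152 CPM in the combination and 206, 186 and 186 CPM with anti-CD40 (difference -0.32 ± 0.08), also without overlap. The count of 6 was 3 without anti-CD40 replicate 1. The letters TGACNNNGC, the core of the antioxidant response element, on either strand, occurred in 3 of 18 promoters (16.7%) of the 13 listed genes in the table, against 3338 of 32851 (10.2%). The matches were in Gclm, Txnrd1 and G6pdx, and 0 of the 5 lower genes with an entry held one.

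Ribosomal protein genes formed the largest group of negative differences, all small. All 81 that were tested had a negative difference, 39 were lower and 0 higher at an unadjusted p under 0.05 (background 2.74% and 2.26%), and the median was -0.149. Their summed level was 28170 to 32010 CPM in the combination, 30200 to 34350 CPM with anti-CD40 and 30230 to 33230 CPM with vehicle, ranges that overlap. Rpl38, a protein of the large subunit, was at 94.5, 102, 97.4, 98.3 and 97.4 CPM in the combination and 121, 116 and 117 CPM with anti-CD40, without overlap (difference -0.27 ± 0.06, unadjusted p = 0.000316, edgeR). Rplp2, of the acidic stalk, was at 311, 360.1, 341, 313 and 306 CPM in the combination and 401, 380.5 and 414 CPM with anti-CD40. The count of 39 was 10 without anti-CD40 replicate 3, 19 without anti-CD40 replicate 1, 23 without combination replicate 1 and 24 without combination replicate 5. The background of lower genes in these fits was 4.54%, 2.2%, 2.48% and 2.14%. Of 81 ribosomal protein pseudogenes, which share sequence with their parent genes so that reads may be split between them, 15 were lower and 0 higher, against the same 2.74% and 2.26%.

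Differences also went with gene length. The median difference was -0.0688 in the fifth of genes with the shortest exons, then -0.0263, -0.00664, 0.00936 and 0.03 in the longest. Genes higher at an unadjusted p under 0.05 had a median exon length of 5276 bases, those lower 2390, and all genes 3943. With offsets for exon length and GC content, 27 ribosomal protein genes were lower in place of 39 (background 2.98% in place of 2.74%). Oxidative phosphorylation subunits had 17 of 18 negative differences and a median of -0.11, with 0 higher and 0 lower. Of 19 heat shock chaperones, 18 had negative differences and 1, Hspb1 at -0.18, was lower at an unadjusted p under 0.05 (background 2.74%).

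Lists of tumour epithelium, fibroblasts and proliferation gave no gene at an unadjusted p under 0.05. Of 13 basal and 20 suprabasal and cornified keratinocyte genes, 0 were higher and 0 lower, with medians of 0.05 and -0.0040. Krt14, the basal keratin, was at 1997, 3588, 2351, 2529 and 3058 CPM in the combination and 2701, 1655 and 2878 CPM with anti-CD40, with an interval of -0.26 to 0.59. Klf4, a transcription factor of squamous differentiation, was at 537, 559, 491, 644 and 482 CPM in the combination and 524, 461 and 698 CPM with anti-CD40, with an interval of -0.31 to 0.21. Of 25 cell cycle genes, 18 p53 targets, 23 hypoxia and glycolysis genes, 20 fibroblast and collagen genes and 15 Hippo and YAP targets, 0 were higher or lower in each list, and medians ran from 0.0011 to 0.19, the largest in the fibroblast list. In that list, 17 of 20 differences were positive and 3 were negative.

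Of 23 epithelial-mesenchymal transition and matrix protease genes, 19 had positive and 4 negative differences, with a median of 0.13. At an unadjusted p under 0.05, 1 of the 23 was higher and 0 were lower (background 2.26% and 2.74%). This was Snai1, a repressor of E-cadherin that acts in that transition. It was at 1.86, 1.6, 1.45, 1.25 and 1.25 CPM in the combination, 0.835, 1.09 and 0.79 CPM with anti-CD40 and 2.03, 2.37, 1.6 and 1.61 CPM with vehicle. The anti-CD40 libraries were the low ones: all 3 lay below every combination and every vehicle library. The difference was 0.72 ± 0.23 for combination minus anti-CD40 (unadjusted p = 0.00595) and -1.07 ± 0.24 for anti-CD40 minus vehicle (adjusted p = 0.486, edgeR).

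**Figure D5:**
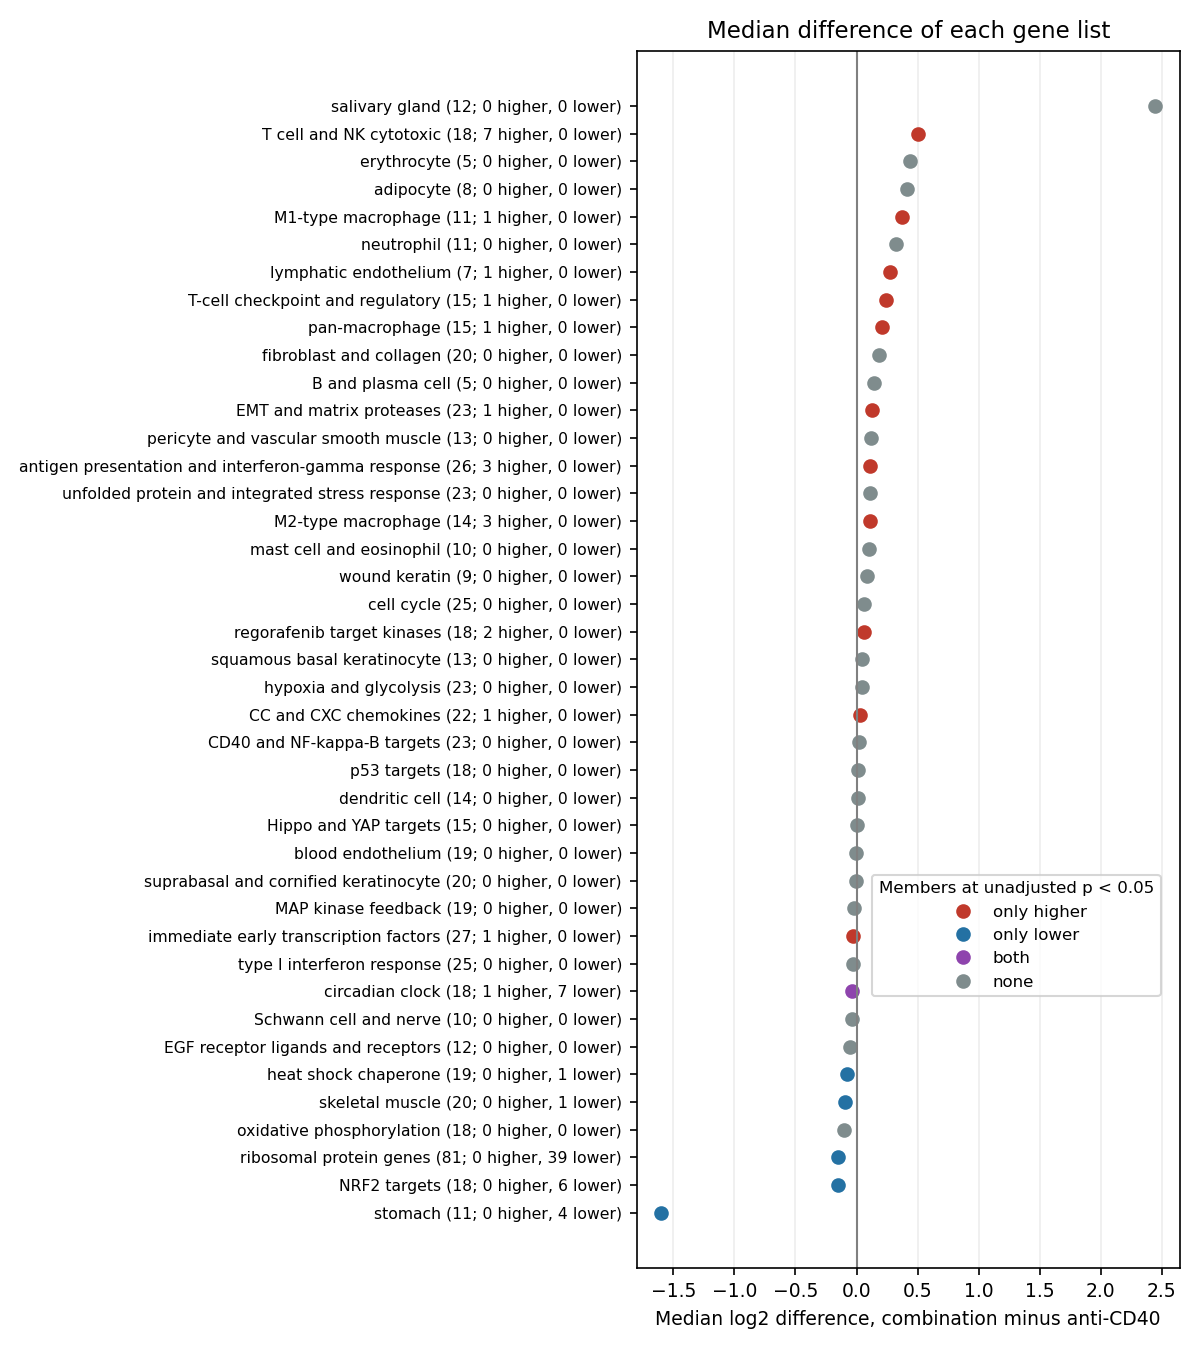
Median log2 difference, combination minus anti-CD40 (x axis), of each gene list and of the ribosomal protein genes, with the number of genes tested and the number higher and lower at an unadjusted p under 0.05; colours mark whether such genes were only higher, only lower, both or none. The T-cell and NK list lies at 0.50 and the NRF2 list at -0.15, while the salivary gland list at 2.45 has no such gene.

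The genes with the smallest p-values over the whole table are given as values only. On the higher side were Gabre, Sema3a, Ptprc, Asap1, Olfm1, Agpat4, Lyve1, Il20ra, Klrk1, Spon1, Ncoa2 and Dse. Gabre, the epsilon subunit of the GABA-A receptor (ENSMUSG00000031340.8, on chromosome X from 72255999 to 72274803 on the - strand, GRCm38), was at 1.43, 1.36, 1.62, 1.93 and 1.54 CPM in the combination, 0.835, 0.819 and 1.04 CPM with anti-CD40 and 1.47, 1.81, 1.86 and 2.02 CPM with vehicle. The combination overlapped vehicle, and the 3 anti-CD40 libraries lay below both (difference 0.80 ± 0.18, unadjusted p = 0.000245, edgeR). Sema3a, a secreted guidance cue of axons and vessels, was at 2.34, 2.31, 2.62, 2.17 and 2.09 CPM in the combination and 1.67, 1.04 and 0.873 CPM with anti-CD40, without overlap. Il20ra, a receptor chain for interleukin-20 family cytokines on keratinocytes, was at 1.69, 2.42, 1.62, 1.97 and 2.94 CPM in the combination and 1.25, 0.655 and 0.956 CPM with anti-CD40, also without overlap (difference 1.15 ± 0.32). Dse, an enzyme of dermatan sulfate synthesis, was at 14.8, 16.4, 13, 13.8 and 13.8 CPM in the combination and 11.2, 11.1 and 11.2 CPM with anti-CD40.

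On the lower side were Rpl34-ps1, Nr1d2, Rpl38, Swi5, Rpl18-ps2, Mrpl20, Gstp1, Rpl38-ps2, Rps15a-ps5, Ssx2ip, Rpl6l and Rplp2, of which 4 are ribosomal protein pseudogenes. Rpl6l is a ribosomal protein-like entry that is not annotated as protein-coding, and it was in neither ribosomal count. Swi5, a homologous recombination protein, was at 92.3, 92.2, 90.8, 85.8 and 89.4 CPM in the combination and 105, 105 and 101 CPM with anti-CD40, narrow groups without overlap (difference -0.20 ± 0.05). Mrpl20, a protein of the mitochondrial ribosome, was at 32, 34.8, 33.8, 31.1 and 32.6 CPM in the combination and 42.1, 40.1 and 35.7 CPM with anti-CD40. The groups of all 12 lower genes did not overlap, a property that the smallest p-values favour.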

How the data were processed

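Bulk polyA RNA-seq of 19 mouse oral tumour samples was analysed from the authors' deposited table of raw counts per gene (55487 genes), in the unit of reads per gene. Libraries were made with a stranded mRNA kit, per the labels' protocols. Reads were processed with cutadapt 2.4 and STAR 2.7.2a on GRCm38, per the submitters' processing notes; the counting setting is not given in the sources used here. From these counts, edgeR 4.0.16 (R 4.3.3) fitted 1 mean per group over all 5 groups, with TMM scaling, a filter by group that kept 16909 genes (99.92% of counts), robust quasi-likelihood dispersion and Benjamini-Hochberg adjustment at 0.05. The log2 differences carry SE and a 95% interval from the model. limma 3.58.1 and DESeq2 1.42.0 were alternatives. Depth was 16776177 to 23435619 counts in the 8 libraries.

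The lists and members were chosen with earlier results of these data known. Named genes were the 12 with the largest change in each direction among called genes with at least 1 CPM; as none was called, those with the smallest p made up the 12, beside the leading member of each list and 12 fixed genes. Symbols came from GENCODE, with 260 identifiers unmatched. Some members counted in the lists are not reported here by name. The scripts were tested on simulated data. Other alternatives were RLE scaling, no filter, the 2 groups alone, replicate block, muscle and gland scores as covariates, a fold threshold of 1.2, each library left out and, chosen after seeing the data, offsets for exon length and GC content and vehicle libraries left out.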

Additional observations from a re-analysis of the deposited data

Results flagged for a closer look

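Of 63 groups of 4 or 5 libraries, 3 held a library whose gap to its nearest neighbour was large for the group's range. Chance gives about 1 in 20. The groups were 52 of the combination and 11 of vehicle, and do not match exactly the per-library values given above. Lyve1 was at 26.1 CPM in combination replicate 1, against 19.4 CPM in the next highest combination library. Nfil3 was at 28.9 CPM in combination replicate 2, with the next highest at 22.3 CPM. Il2ra was at 1.36 CPM in combination replicate 2, with the next lowest at 1.95 CPM. No cause was tested.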

How the results depend on the processing

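The combination against anti-CD40 gave 0 called genes under every alternative run. Genes at an unadjusted p under 0.05 numbered 842 with RLE scaling, 1121 without the filter, 791 with DESeq2, 1818 with limma and sample weights, 671 with the 2 groups alone, 1047 with the muscle covariate, 678 with the gland covariate, 186 with a fold threshold of 1.2, 839 with length and GC offsets, and 719 to 1248 with a library left out. Same-numbered samples did not deviate together (r = -0.174, -0.265 and -0.0194), and other-numbered samples ran from -0.274 to 0.359. So few values of such spread give no sign of pairing by number and cannot exclude it. With the replicate block, 0 genes were called and 694 had an unadjusted p under 0.05, and 918 with the block and the muscle covariate.

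Combination against vehicle, 4 calls, gave 122 with DESeq2, 13 with the muscle covariate, 16 with block and muscle covariate, 0 with the fold threshold and 0 to 7 with a library left out. Anti-CD40 against vehicle, 0 calls, gave 1 with RLE, 1 without the filter, 5 with DESeq2, 2 with limma and 0 to 1 with a library left out. The cause was not tested.

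Differences within their error changed sign. Klf4 became 0.022 with limma, 0.0013 with the replicate block, 0.024 with the gland covariate and 0.016 with block and muscle covariate, and ran from -0.176 to 0.14 with a library left out (0.14 without anti-CD40 replicate 3). Tnfrsf13c, the BAFF receptor of B cells, became 0.202 with limma and ran from -1.12 to 0.364 (anti-CD40 replicate 3). Kdr became -0.035 with length and GC offsets and ran from -0.111 to 0.114 (negative without anti-CD40 replicate 3, combination replicate 1 or 3). Without anti-CD40 replicate 2, Cd274 and Krt14 turned negative, and without anti-CD40 replicate 3, Cd163 did; their ranges were -0.0075 to 0.591, -0.049 to 0.313 and -0.040 to 0.331. Among lists, the clock count of 7 lower was 2 with limma, where its median turned to 0.067, and its median was 0.0054 without combination replicate 2. The NRF2 count of 6 was 0 with the fold threshold, 3 with the replicate block and 10 with limma. The ribosomal count of 39 was 0 with the fold threshold, 15 with the replicate block, 19 with the gland covariate, 22 with the 2 groups alone, 25 without the filter and 52 with limma. The share of all genes that were lower also moved. It was 2.74% in the main fit, 0.384% with the fold threshold, 1.95% with the replicate block and 1.89% with the gland covariate. With the 2 groups alone it was 1.72%, without the filter 1.7% and with limma 5.7%. The antigen presentation count of 3 was 0 with the fold threshold, 0 with the block and 1 with the gland covariate or the length and GC offsets. The share of all genes that were higher was 0.716%, 2.16%, 2.12% and 1.99% in these settings, against 2.26% in the main fit. Genes near or below 1 CPM, among them most T-cell genes, are limited by depth.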
